A study of Mus musculus with 2 samples.

Results

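A set of 10 genes of fatty acid binding and lipid handling was followed through cells that carried a Nestin-GFP reporter (Nes-GFP+ cells) in brain and lung. The set was a list of named genes, and the list set no threshold on measured values. It was chosen with earlier results of these data known, so counts of its members beside all genes are descriptions only. The set held the fatty acid-binding proteins Fabp3, Fabp4, Fabp5 and Fabp7, the fatty acid receptor Cd36, the lipase Lpl and its anchor Gpihbp1, the lipid droplet coat protein Plin2, the lipoprotein component Apoe and the nuclear receptor Pparg. All 10 were listed in both count tables, among 25814 genes in all. The cells came from the whole brain and from the lung of C57BL/6 mice (strain as labelled) aged about 6 weeks, and both groups carried the same reporter and received no treatment. By the methods, transgenic animals were bred with wild-type stock of CD1 or CD1/C3H background, so the strain of these animals is known only from the label. Tissue was digested with trypsin, GFP-positive cells were collected by flow cytometry, and each tissue gave 1 droplet library, which counts unique molecular identifiers (UMIs) at the 3′ ends of transcripts. Each library was thus a single sample, and the number of animals behind it was not given in the sources used here.

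Long-chain fatty acids are poorly soluble in water and travel bound to proteins or packed in lipoproteins. In capillaries, GPIHBP1 carries lipoprotein lipase to the luminal face of endothelial cells, where the enzyme splits triglycerides of circulating particles, and CD36 and fatty acid-binding proteins take part in moving the released fatty acids through the cell. In the brain, astrocytes are the main source of the lipoprotein component APOE, and FABP7, also called brain lipid-binding protein, marks radial glia and glial precursors. Lung fibroblasts of the lipid-laden kind, the lipofibroblasts, are known for PLIN2, PPARG and LPL.

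Each library was clustered on its own without these 10 genes and 109 other lipid genes among the variable genes, and clusters were named from marker lists. This gave 10 named classes in brain and 9 in lung, each called "-like" after its list. The level of a gene in a class is its UMI count summed over the class per 1000000 UMIs of that class (CPM), with an exact Poisson 95% interval, and a ratio is a ratio of CPM with an exact conditional 95% interval. With 1 library per tissue there were no replicates and no test was possible, so every interval covers counting error only and no difference has a replicate check. A ratio was counted as a difference where it was at least 2-fold and rested on at least 20 UMIs in both classes together. The filter kept 4151 of 4640 brain barcodes and 5608 of 5981 lung barcodes, with medians of 4209 and 5585 UMIs. The libraries shared 15 barcodes, of which 11 passed the filter in both. Nes itself had a UMI in 18.7% of brain cells (95% interval 17.5 to 19.9%) and in 64.6% of lung cells (63.4 to 65.9%).

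Promoter sequence, taken from RefSeq on build GRCm38.p6 (the assembly also called mm10), was available for 6 of the 10 genes as windows from 250 bases before to 50 bases after a start site. Of these, 3 are shown because their genes stood at opposite ends of the patterns described next: Fabp7 was led by glial classes, Cd36 by lung endothelium, and Plin2 was found in every class. The windows lie at chr10:57784673-57784972 on the plus strand, chr5:17835847-17836146 on the minus strand and chr4:86670010-86670309 on the minus strand, in that order, and each is written 5′ to 3′ along its gene. The Cd36 window is at a start site inside the annotated gene (chr5:17781690-17888801), away from its outer 5′ end.
Fabp7: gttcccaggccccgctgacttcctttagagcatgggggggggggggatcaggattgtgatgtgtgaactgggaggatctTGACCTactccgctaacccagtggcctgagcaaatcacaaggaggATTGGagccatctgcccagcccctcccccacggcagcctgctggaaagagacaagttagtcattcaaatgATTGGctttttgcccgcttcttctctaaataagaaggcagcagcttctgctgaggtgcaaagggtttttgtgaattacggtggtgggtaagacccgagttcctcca
Cd36: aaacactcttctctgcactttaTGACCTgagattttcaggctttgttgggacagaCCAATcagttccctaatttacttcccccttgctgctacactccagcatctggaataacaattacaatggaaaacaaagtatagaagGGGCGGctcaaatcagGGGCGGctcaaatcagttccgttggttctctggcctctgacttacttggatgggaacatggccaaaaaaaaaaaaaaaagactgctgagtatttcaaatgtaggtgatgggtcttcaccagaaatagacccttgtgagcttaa
Plin2: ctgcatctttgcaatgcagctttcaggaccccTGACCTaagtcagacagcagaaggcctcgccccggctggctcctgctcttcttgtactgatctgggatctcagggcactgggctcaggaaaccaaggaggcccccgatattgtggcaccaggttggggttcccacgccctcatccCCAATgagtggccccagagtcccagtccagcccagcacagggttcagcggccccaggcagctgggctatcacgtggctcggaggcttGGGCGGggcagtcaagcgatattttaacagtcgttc
Capitals mark matches, on either strand, to the nuclear receptor core site AGGTCA, the GC box GGGCGG and the inverted CCAAT box ATTGG. Each of the 3 windows held 1 core site, at position 80 of the Fabp7 window, 23 of the Cd36 window and 33 of the Plin2 window, all on the strand opposite to the gene. The core site was found in 16.3% of the 32851 RefSeq windows of this length, the GC box in 35.7% and the inverted CCAAT box in 37.4%. The full response element of PPAR receptors, AGGTCA, N and AGGTCA in a row, contains the core site and was found in 0.0396% of all windows. Neither it nor the TATA box TATAAA (13.6% of all windows) was among the letters of these 3 windows. The 6 genes had 10 windows in all. The core site was absent from the window of Fabp3 and from the 3 windows of Apoe, and it was found in 2 of the 3 windows of Pparg.

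The members fell into distinct patterns over the 19 named classes. Apoe, Fabp5 and Plin2 had UMIs in every class, while Fabp4 was at 0 UMIs in 9 classes, Cd36 in 9, Pparg in 9 and Gpihbp1 in 10. The level of Apoe in its highest class was 543 times that in its lowest, against 58.9 times for Fabp5 and 87.0 times for Plin2. When the classes were placed in order of Apoe level, the counting intervals of neighbours overlapped for 3 of the 18 neighbouring pairs. The corresponding number was 12 for Fabp5, 13 for Fabp7, 15 each for Fabp4, Cd36 and Lpl, 16 for Plin2, 17 for Fabp3 and Gpihbp1 and 18 for Pparg, so the order of many neighbouring classes could not be told from counting error. This held at the top as well, for the first 3 classes of Fabp5 (activated NSC-like, neuroblast-like and astroglia-like cells, all of brain) and for the first 2 of Lpl and of Pparg. Fabp3, the heart-type fatty acid-binding protein, was low throughout, with its highest level, 45.9 CPM (28.4 to 70.1), in lung smooth muscle-like cells and at most 7.85 CPM in any other named class.

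**Figure D1:**
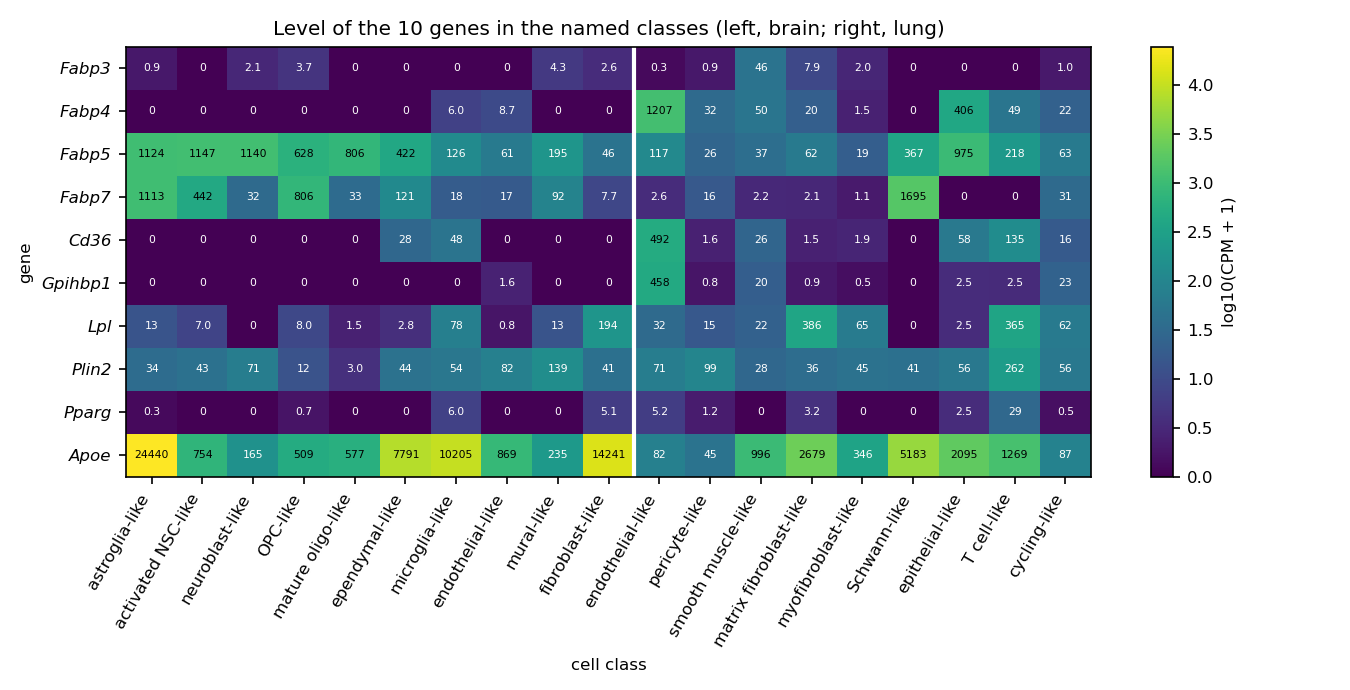
Level of the 10 genes (rows) in the 10 named brain classes (left of the white line) and 9 named lung classes (right). Colour is log10(CPM + 1) and the printed number is CPM, summed over all cells of the class. Fabp4, Cd36 and Gpihbp1 lead in lung endothelial-like cells (1207, 492 and 458 CPM), Apoe in brain astroglia-like cells (24440 CPM) and Lpl in lung matrix fibroblast-like cells (386 CPM).

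The endothelium of the organs was compared first, since endothelial-like cells were present in both libraries (607 lung and 329 brain cells). Fabp4, which binds fatty acids in the cytoplasm, had 4169 UMIs in lung endothelial-like cells (1207 CPM, 1171 to 1244) and 11 UMIs, all in 2 cells, in brain endothelial-like cells (8.72 CPM, 4.35 to 15.6). The level was 138 times higher in lung (interval 77.3 to 277), or 3.41 times without lung cluster 17, a group of 74 cells that held most of the Fabp4 UMIs. Cd36 had 1698 UMIs in the lung class (492 CPM) and 0 in the 329 brain endothelial-like cells. Against the floor it was thus 207-fold higher in lung (interval from 168). Gpihbp1 had 1583 UMIs (458 CPM) against 2 UMIs, a ratio of 289 (79.9 to 2388). These 3 genes of capillary fatty acid uptake were thus near or at 0 in brain endothelium.

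Lpl, the enzyme that GPIHBP1 anchors, had 112 UMIs (32.4 CPM) in lung and 1 UMI in brain endothelium (ratio 40.9, interval 7.19 to 1630). The opposite direction was seen for Apoe and Fabp7. Apoe stood at 81.9 CPM in lung and 869 CPM in brain endothelium (lung over brain 0.0943, 0.0824 to 0.108), and Fabp7 at 2.61 and 16.7 CPM (0.156, 0.0631 to 0.356). Both genes were abundant in brain astroglia-like cells, and 73.6% of brain endothelial-like cells held an Apoe UMI against 97.5% of astroglia-like cells. The astroglial share of the brain endothelial Apoe and Fabp7 counts through free RNA was not tested. Fabp5 differed by less than 2-fold (117 and 61.1 CPM, ratio 1.92, 1.5 to 2.48), but its ratio was 0.857 without lung cluster 17, 3.57 with called doublets removed and 5.61 with cells gated one by one on markers. Without lung cluster 17 the Apoe ratio was 0.0474. The interval of Plin2 included 1 (70.9 and 81.7 CPM, ratio 0.869, 0.687 to 1.10). Pparg had 18 UMIs in lung and 0 in brain endothelium, and Fabp3 1 and 0, which left both under the count minimum.

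Of the 8 members with enough counts, 4 were higher and 2 lower in lung endothelium by at least 2-fold. Among all 10568 genes with enough counts, 13.6% were higher and 11.3% lower. Of 76 other lipid genes, 12 were higher and 14 lower, with a median log2 ratio of −0.15 beside 0.01 over all genes. Rbp7, a retinol-binding protein of the same family as the FABPs, had 575 UMIs in lung and none in brain endothelium, and Hilpda, a lipid droplet protein that inhibits lipolysis, stood at 916 against 27.8 CPM. In the other direction, Mfsd2a, the transporter of lysophosphatidylcholine at the blood-brain barrier, had 0 UMIs in lung and 515 (408 CPM) in brain endothelium.

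The lung endothelial-like class consisted of 3 clusters, and they differed in these genes. Cluster 4 (393 cells) was led by Vwf, Lyve1 and Gja5, cluster 11 (140 cells) by Clec1a, Hpgd and Myzap, and cluster 17 (74 cells) by Fabp4, Rbp7 and Cd300lg. Since clusters were made from these same cells, their levels are a description. Fabp4 was found almost wholly in cluster 17, at 10282 CPM against 36.5 CPM in cluster 4 and 14.8 CPM in cluster 11. That cluster held 4078 of the 4169 Fabp4 UMIs of the class (97.8%), and 67 of its 74 cells had a Fabp4 UMI. In cluster 4, by contrast, 13 of 393 cells had one, and a single cell held 51 of the 77 UMIs.

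Cd36 and Gpihbp1 followed another distribution than Fabp4. Cd36 stood at 202, 1043 and 716 CPM in clusters 4, 11 and 17, and Gpihbp1 at 110, 921 and 1208 CPM. Relative to cluster 4, Cd36 was 5.16 times higher in cluster 11 and 3.54 times higher in cluster 17, and Gpihbp1 8.34 and 10.9 times higher. In cluster 11 both occurred almost without Fabp4. Of the 140 cells of cluster 11, 126 held Gpihbp1 UMIs but no Fabp4 UMI, and 2 held Fabp4, Cd36 and Gpihbp1 together. In cluster 17, 35 of 74 cells held all 3 genes, and in cluster 4, 183 of 393 cells held none of them.

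Of the remaining members, Fabp5, Apoe, Pparg and Lpl also differed between clusters 17 and 11. Fabp5 stood at 615 CPM in cluster 17 and 38.1 CPM in cluster 11, Apoe at 396 and 11.6 CPM, and Pparg, the nuclear receptor that drives fat cell differentiation, at 40.3 CPM and 0 UMIs. Of the 18 Pparg UMIs of lung endothelium, 16 lay in cluster 17. Lpl had the reverse order, with 12.6 CPM in cluster 17 and 81.4 CPM in cluster 11 (17 over 11: 0.155, 0.0489 to 0.377), while the interval of Plin2 included 1 (85.7 and 80.3 CPM, ratio 1.07, 0.690 to 1.62). Among other lipid genes, Rbp7 stood at 1339 CPM in cluster 17, Mgll, which encodes monoacylglycerol lipase, at 1056 CPM, and Tcf15 and Meox2, transcription factors known from heart capillaries, at 242 and 164 CPM. Neither factor was limited to cluster 17. Meox2 stood at 320 CPM in lung matrix fibroblast-like cells, and Tcf15 at 23.8 CPM in brain endothelial-like cells. Hilpda had the opposite order to Fabp4, with 963, 1195 and 7.56 CPM in clusters 4, 11 and 17.

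Markers of other cells in cluster 17 were as follows. The red blood cell list (5 of 5 genes) was at 18937 CPM in cluster 17, against 99.9 and 31.7 CPM in clusters 4 and 11, and at 11153 CPM in brain endothelial-like cells; its part in the levels was not tested. Of the fat cell list, only Retn was listed in the lung count table, and it was at 0 UMIs in cluster 17, as was the macrophage list. Adipoq, Cfd, Lep and Adig were not listed for lung, so they could not tell lung clusters apart. Without cluster 17, which was left out after seeing the data, Fabp4 in lung endothelium was 29.8 CPM (24.0 to 36.5), Pparg 0.654 CPM and Fabp5 52.3 CPM, while Cd36 was 463 CPM and Gpihbp1 361 CPM. Over brain endothelium, Cd36 was then at least 194-fold and Gpihbp1 228 times higher.

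The lung library also held a cluster led by genes of heart muscle. Cluster 10 (171 cells), which received no name, was led by Myl7, Tnnt2, Col1a1 and Tnni3. Its levels were 31.8 CPM for Fabp3, 5.77 CPM for Fabp4, 118 CPM for Lpl and 427 CPM for Apoe, with no UMI of Pparg or Fabp7. Whether clusters 17 and 13, of which the second is described next, came from the lung tissue proper was not tested and cannot be read from the labels.

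**Figure D2:**
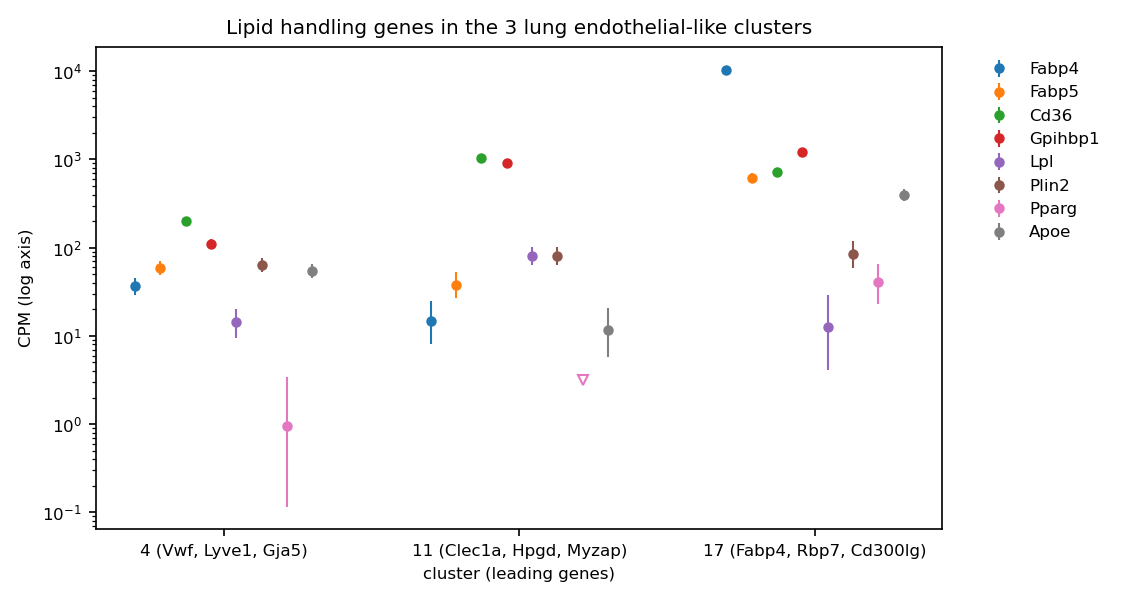
Level of 8 of the genes in the 3 lung endothelial-like clusters, in CPM on a log axis. Points are sums over the cells of a cluster, bars are exact Poisson 95% intervals (counting error only), and the open triangle marks 0 UMIs, drawn at the level of 3 UMIs. Fabp4 stands at 36.5, 14.8 and 10282 CPM in clusters 4, 11 and 17, while Cd36 and Gpihbp1 are high in clusters 11 and 17.

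Capillary cells of the gas exchange surface, the aerocytes, were sought with a gate of at least 2 of the 5 markers Ednrb, Car4, Apln, Fibin and Tbx2. The gate took 85 of 607 endothelial-like cells, 19 of them in cluster 17. Fabp4 was at 3104 CPM in the gate and 817 CPM in the other endothelial-like cells (ratio 3.8, 3.57 to 4.04), and Fabp5 at 228 and 94.2 CPM (2.42, 1.95 to 2.98). Cd36 (724 and 444 CPM) and Gpihbp1 (748 and 399 CPM) differed by less than 2-fold. Thus 2 of 7 members were higher and none lower, where 4.33% and 5.16% of 9697 genes were (9.49% in either direction). This rested on the cells of cluster 17: without them Fabp4 was lower in the gate (0 UMIs, ratio at most 0.189) and Fabp5 was within 2-fold (0.506). With a gate on Ednrb or Apln, no member was higher and Apoe was lower (ratio 0.437).

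The vessel wall was examined next. Pericytes wrap capillaries, and pericyte-like cells were the largest lung class (1978 cells). Lung endothelial-like cells exceeded them in Cd36 (492 against 1.57 CPM, ratio 313, 192 to 548), Gpihbp1 (458 against 0.787 CPM, ratio 583, 295 to 1352) and Fabp4 (1207 against 32.1 CPM, ratio 37.7, 33.6 to 42.3). Smaller differences in the same direction were found for Fabp5 (4.54, 3.88 to 5.33), Pparg (4.42, 2.01 to 10.1) and Lpl (2.11, 1.64 to 2.71). Fabp7 was lower in endothelium (0.164, 0.0735 to 0.318), and Apoe (1.82) and Plin2 (0.714) differed by less than 2-fold. In all, 6 of 9 members were higher and 1 lower, beside 15.3% and 16.7% of 12413 genes. Some of these values hung on how cells were chosen. Without cluster 17, Fabp4 stood at 0.929, Apoe at 0.915 and Pparg at 0.554 of the pericyte level, and the Fabp5 ratio was 2.03. Without the pericyte-like cluster 13, the ratios were 728 for Fabp4, 23.5 for Fabp5, 4.97 for Lpl and 3.53 for Apoe, and at least 16.8 for Pparg. With cells gated one by one on markers, Lpl and Apoe were lower in endothelium (ratios 0.595 and 0.185).

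Among 81 other lipid genes, 18 were higher and 18 lower in endothelium than in pericyte-like cells, with a median log2 ratio of −0.10 (all genes, 0.00). Rbp7 and the desaturase Scd1 were among the highest in endothelium. Lipg, the endothelial lipase, was at 7.24 CPM in endothelial-like and 337 CPM in pericyte-like cells. G0s2, an inhibitor of triglyceride lipolysis, and Nr1h3, which encodes the sterol-sensing receptor LXRα, were likewise lower in endothelium (12.5 against 486 CPM, and 8.11 against 246 CPM).

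Within the pericyte-like class a single cluster carried most of the Fabp4, Fabp5, Lpl and Pparg counts. Cluster 13 (110 cells), led by Rgs5, Kcnj8 and Steap4, held 310 of the 326 Fabp4 UMIs, 214 of 262 Fabp5 UMIs, 93 of 156 Lpl UMIs and all 12 Pparg UMIs of the class. Its Fabp4 level was 595 CPM against 1.55 CPM in the largest pericyte-like cluster (cluster 0, 1378 cells), its Fabp5 level 411 against 4.25 CPM and its Lpl level 179 against 5.28 CPM. Fabp4 UMIs were in 34 of its 110 cells, and 1 cell held 84 of them. Fabp5 UMIs were spread more widely, over 66 cells with at most 12 each. Plin2 did not follow this pattern, with 92.2 CPM in cluster 13 and 104 CPM in cluster 0 (ratio 0.889, 0.650 to 1.19). Apoe was at 450 and 21.9 CPM in these clusters, although 1 cell held 141 of the 234 UMIs. The macrophage markers and Retn, the only fat cell marker listed for lung, were at 0 UMIs in cluster 13. Cd36 and Gpihbp1 had 2 and 0 UMIs there.

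The brain mural-like class (169 cells) offered the matching comparison, and here the fatty acid-binding proteins went in different directions. Fabp4 had 326 UMIs in lung pericyte-like cells and 0 in brain mural-like cells, which made it 4.99-fold higher in lung against the floor (interval from 4.04). Of those UMIs, 310 lay in cluster 13. Without it the 16 others were at a lower level than 3 UMIs would be in the mural-like class (6.42 CPM), so no direction could be given, and the Fabp5, Lpl and Apoe ratios were 0.0255, 0.509 and 0.0986. Fabp5 was lower in lung (25.8 against 195 CPM, ratio 0.132, 0.104 to 0.170), as were Fabp7 (15.9 against 92.0 CPM, ratio 0.173, 0.123 to 0.248) and Apoe (45.0 against 235 CPM, ratio 0.191, 0.155 to 0.238). A UMI of Fabp5, Fabp7 and Apoe was found in 24.3%, 20.1% and 34.3% of mural-like cells, against 73.4%, 68.9% and 97.5% of astroglia-like cells. The part of free astroglial RNA in the mural counts was not tested. With cells gated one by one, the ratio was 1.81 for Apoe, 0.603 for Fabp7 and 4.12 for Lpl. Plin2 (99.4 and 139 CPM) and Lpl (15.3 and 12.8 CPM) were within 2-fold. This amounted to 1 of 6 members higher and 3 lower, beside 12.8% and 17.1% of 11703 genes. Of 77 other lipid genes, 13 were higher and 19 lower. Lipg led those higher in lung, with 337 against 2.14 CPM, and Apod those lower, with 0.590 against 53.5 CPM.

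**Figure D3:**
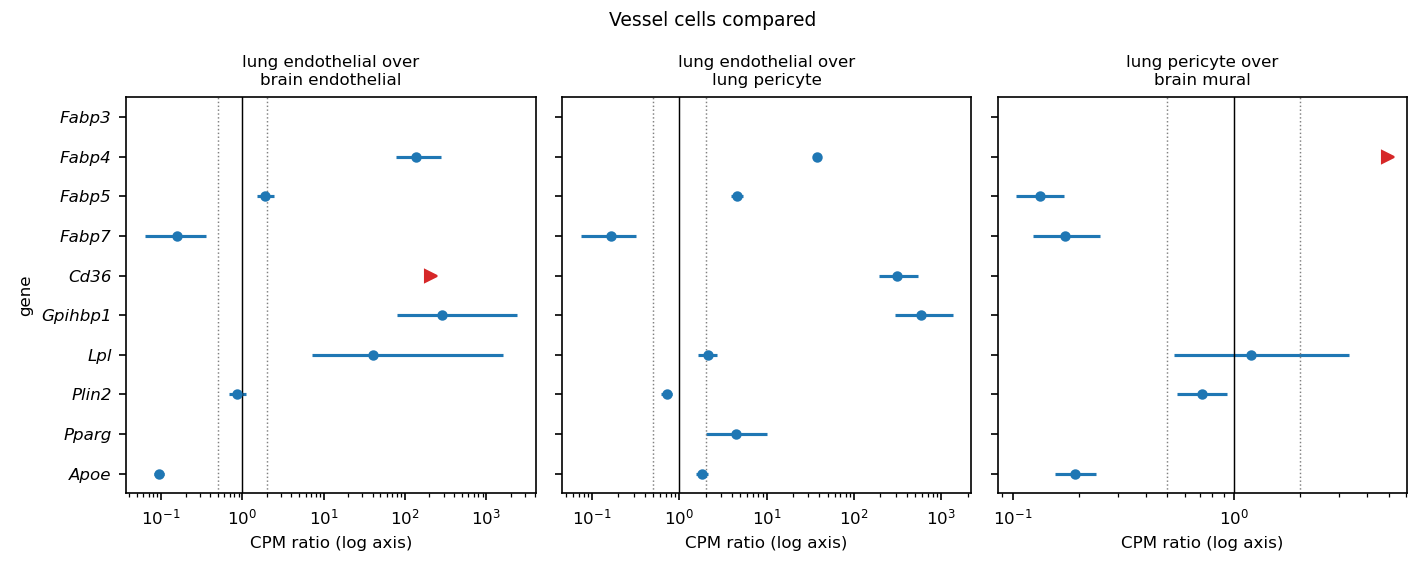
Ratios of CPM for the members with at least 20 UMIs in both classes together, on a log axis, in 3 comparisons of vessel cells. Circles are ratios with exact conditional 95% intervals, red triangles are ratios to the floor of 3 UMIs where the second class had 0 UMIs, and dotted lines mark 2-fold. Fabp4, Cd36 and Gpihbp1 lie far to the right in both endothelial panels, and Fabp5, Fabp7 and Apoe lie to the left in the pericyte panel.

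Fibroblasts of the lung were divided into matrix fibroblast-like cells (584 cells) and myofibroblast-like cells (971 cells). Lpl, which fibroblasts can secrete for use elsewhere, was at its highest named-class level in the matrix class, with 2063 UMIs (386 CPM, 369 to 403) in 461 of 584 cells (the interval overlaps that of the lung T cell-like class, 365 CPM, 309 to 429), against 419 UMIs (64.8 CPM) in the myofibroblast-like class. The ratio was 5.95 (5.36 to 6.63). Apoe was higher as well, at 2679 against 346 CPM (7.74, 7.40 to 8.09). Among the binding proteins, Fabp4 stood at 20.01 against 1.55 CPM (12.9, 6.77 to 27.7), Fabp5 at 61.7 against 19.5 CPM (3.17, 2.57 to 3.92) and Fabp3 at 7.85 against 2.01 CPM (3.91, 2.06 to 7.93), although 1 cell held 16 of the 42 Fabp3 UMIs.

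The droplet coat protein gene Plin2 did not separate these classes (36.5 and 44.7 CPM, ratio 0.816, 0.677 to 0.982), and neither did Cd36 (1.5 and 1.86 CPM). Pparg had 17 UMIs in the matrix class and 0 in the myofibroblast-like class, below the count minimum. Thus 5 of 7 members were higher and none lower, beside 9.72% and 13.4% of 12141 genes. Of 83 other lipid genes, 12 were higher and 13 lower in the matrix class, with a median log2 ratio of −0.20 that lay near the −0.28 of all genes. Meox2 led the higher ones (320 against 2.32 CPM), and Apoc1 was also among the highest (20.8 against 1.55 CPM). Pnpla3, Lipg and Cebpa were lowest.

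Of the matrix fibroblast-like cells, 556 lay in cluster 2 (led by Mfap5, Serpinf1 and Cpz) and 28 in cluster 21 (led by Adh1, Slc38a5 and Enpep). Cluster 21 was higher in Plin2 (141 against 32.6 CPM, ratio 4.34, 2.78 to 6.55) and Fabp3 (36.7 against 6.79 CPM, ratio 5.40, 2.03 to 12.3) and lower in Lpl (99.5 against 396 CPM, ratio 0.251, 0.151 to 0.393). Its 27 Plin2 UMIs were spread over 19 of 28 cells. Other droplet and fatty acid genes of cluster 21 included G0s2 at 1126 CPM, the fatty acid transporter Slc27a6 at 230 CPM and Angptl4, an inhibitor of LPL, at 278 CPM. Pparg, in contrast, had 1 UMI in cluster 21.

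The highest Lpl level of any lung cluster was in a cluster that no marker list named. Cluster 14 (98 cells), led by Ptn, C3 and Lum, had 533 Lpl UMIs in 90 cells (651 CPM) and 3850 Apoe UMIs (4706 CPM), which was 1.64 times (1.49 to 1.81) and 1.73 times (1.67 to 1.79) the level of cluster 2. Plin2 was 2.55 times higher (1.90 to 3.40), while Fabp4 was lower (2.44 against 20.4 CPM, ratio 0.120).

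Fibroblasts of the brain were few, with 66 cells. Apoe stood at 14241 CPM there and at 2679 CPM in lung matrix fibroblast-like cells, so the lung level was lower (ratio 0.188, 0.182 to 0.194). Fabp4 had 107 UMIs in the lung class and 0 in the brain class (2.61-fold higher in lung against the floor, interval from 2.09), and Fabp3 stood at 7.85 against 2.56 CPM on 1 brain UMI (ratio 3.07, 0.522 to 124). Lpl was within 2-fold (386 and 194 CPM, ratio 1.99, 1.58 to 2.53), but 1 brain cell held 40 of the 76 UMIs, and with every cell weighted the same the ratio was 2.86. Fabp5 (61.7 and 46.0 CPM) and Plin2 (36.5 and 40.9 CPM) were also within 2-fold. This gave 2 of 6 members higher and 1 lower, beside 15.6% and 16.4% of 10807 genes. With no upper limit on genes per cell, Fabp4 was lower in lung (ratio 0.646). Of 78 other lipid genes, 9 were higher and 25 lower in lung. Apod, a lipocalin, was the lowest (22.4 against 11437 CPM), and Meox2 and Vldlr were the highest.

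**Figure D4:**
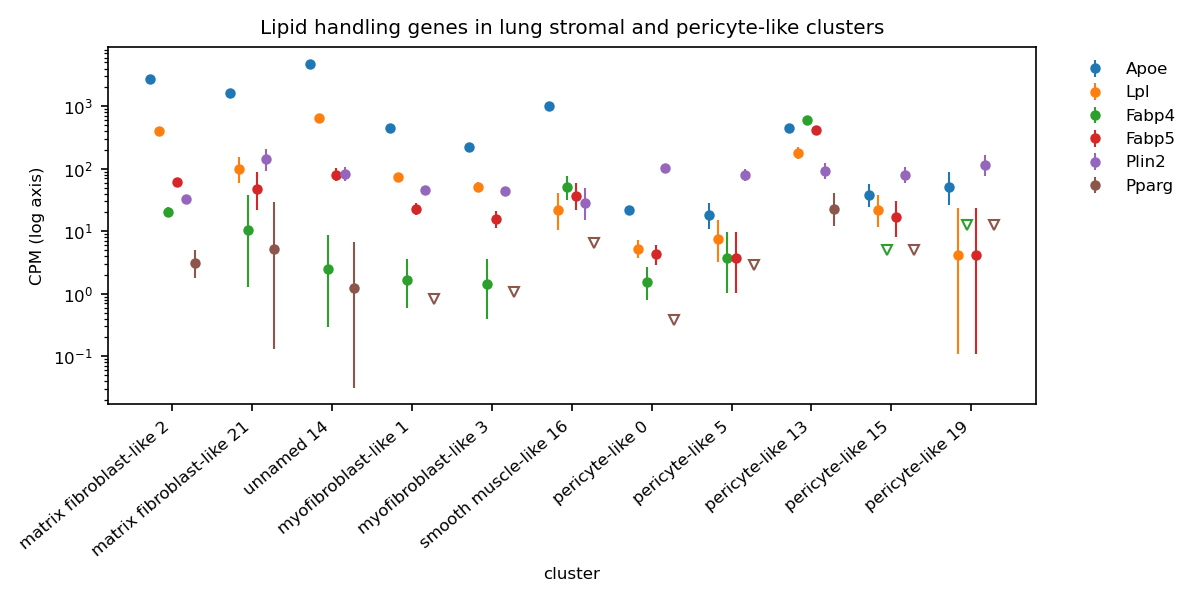
Level of 6 of the genes in lung fibroblast-like, smooth muscle-like and pericyte-like clusters and in the unnamed cluster 14, in CPM on a log axis with exact Poisson 95% intervals. Open triangles mark 0 UMIs, drawn at the level of 3 UMIs. Lpl and Apoe are highest in clusters 2 and 14, and among pericyte-like clusters Fabp4, Fabp5, Lpl and Pparg stand out in cluster 13 (595, 411, 179 and 23.0 CPM).

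The brain neurogenic lineage and its glia were then compared class by class, from astroglia-like cells (837 cells, which hold quiescent NSC-like and astrocyte-like clusters) to activated NSC-like cells (396 cells) and neuroblast-like cells (1600 cells). Apoe, the lipoprotein component secreted by astrocytes, was lower at each step of this order, with 24440, 754 and 165 CPM. The ratio of astroglia to activated NSC was 32.4 (31.1 to 33.7), and that of activated NSC to neuroblast 4.58 (4.26 to 4.92), or 1.19 at the lower clustering resolution of 0.4. Fabp7, the brain lipid-binding protein, stood at 1113, 442 and 32.3 CPM, with ratios of 2.52 (2.37 to 2.68) and 13.7 (11.8 to 15.9). The first Fabp7 ratio was 1.31 with cells gated one by one and 1.59 with called doublets removed, so that difference depended on how the cells were assigned.

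Fabp5, the epidermal-type fatty acid-binding protein, did not follow them. It was at 1124, 1147 and 1140 CPM, with ratios of 0.979 (0.936 to 1.02) and 1.01 (0.967 to 1.05). A Fabp5 UMI was found in 73.4%, 98.7% and 89.9% of the cells, and in 51.5%, 66.3% and 66.3% after each cell was thinned to 1000 UMIs. In brain endothelial-like cells, the corresponding shares were 7.60% and 3.77%. Plin2 was low in all 3 classes (34.2, 43.0 and 71.3 CPM), within 2-fold at each step. Lpl had 23 UMIs in activated NSC-like cells and 0 in neuroblast-like cells, and was thus 15.2-fold higher in the former against the floor (interval from 11.4). Between astroglia-like and activated NSC-like cells the Lpl ratio was 1.86, and 0.459 with cells gated one by one.

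For the first step, 2 of 5 members were higher in astroglia-like cells and none lower, beside 25.1% and 24.6% of 12289 genes (49.7% in either direction). The second step had 3 of 5 higher in activated NSC-like cells and none lower, beside 12.7% and 9.61% of 12159 genes. The other lipid genes were mostly on the astroglial side of the first step, with 53 of 84 higher and 4 lower and a median log2 ratio of 1.49 beside −0.12 for all genes. Lcat, which esterifies cholesterol in lipoproteins, was at 203 against 1.51 CPM, Clu, another lipoprotein component, at 3802 against 39.4 CPM, and Mgll at 756 against 11.5 CPM. At the second step 13 of 74 were higher and 4 lower, and Acsbg1, an acyl-CoA synthetase of the brain, Dbi, an acyl-CoA-binding protein, and Plin3 led those that were higher.

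The astroglia-like class was split into the quiescent NSC-like cluster 4 (276 cells, led by genes that include Thbs4 and Gfap) and the astrocyte-like clusters 1 and 6 (561 cells). The abundant members differed by less than 2-fold. Apoe stood at 21978 and 25728 CPM (ratio 0.854, 0.841 to 0.867), Fabp5 at 926 and 1227 CPM (0.754, 0.701 to 0.811) and Fabp7 at 1598 and 859 CPM (1.86, 1.74 to 1.99). Lpl was the one member past 2-fold (36.8 against 0.470 CPM, ratio 78.3, 13.3 to 3168), but its 41 UMIs lay in 5 of 276 cells and 23 of them in 1 cell. This gave 1 of 5 members higher and none lower, beside 14.4% and 7.16% of 10531 genes. Of 81 other lipid genes, 9 were higher and 8 lower in quiescent NSC-like cells. Mfsd2a was among the lowest (36.8 against 200 CPM) and Abcg1, a cholesterol exporter, among the highest (25.1 against 1.88 CPM).

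Activated NSC-like cells were themselves uneven. Cluster 5 (224 cells) had 701 CPM of Fabp7 and 1216 CPM of Apoe, while cluster 7 (172 cells) had 127 and 194 CPM. The ratios were 5.50 (4.72 to 6.44) and 6.27 (5.54 to 7.11), and Fabp5 differed far less (1258 and 1014 CPM, ratio 1.24, 1.16 to 1.32). Among neuroblast-like cells, the largest cluster (cluster 0, 1102 cells) had 15.1 CPM of Fabp7, with a UMI in 5.44% of cells, and 1154 CPM of Fabp5, with a UMI in 96.4% of cells. The Fabp7 share in brain endothelial-like cells was 5.47%, at a similar median depth (3798 UMIs, against 3949 UMIs in cluster 0).

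In the oligodendrocyte lineage, Fabp7 separated precursors from mature cells. OPC-like cells (225 cells) had 1102 Fabp7 UMIs (806 CPM, 759 to 855), and mature oligodendrocyte-like cells (163 cells) had 22 (33.1 CPM), a ratio of 24.3 (15.99 to 39.0). Fabp5 (628 and 806 CPM, ratio 0.779, 0.698 to 0.869) and Apoe (509 and 577 CPM, ratio 0.883, 0.778 to 1.002) stayed within 2-fold. So 1 of 3 members was higher and none lower, beside 27.5% and 8.47% of 9249 genes (36% in either direction). With cells gated one by one, the count of members past 2-fold was 3. Of 65 other lipid genes, 17 were higher and 9 lower, with a median log2 ratio of 0.45 beside 0.44 for all genes. Apod was at 46.1 CPM in OPC-like and 1720 CPM in mature cells.

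For Fabp5 and Apoe, the clusters behind these classes lay further apart than the classes did. OPC-like cluster 12 (121 cells) had 1452 CPM of Fabp7 and 1161 CPM of Apoe, against 470 and 170 CPM in cluster 14 (104 cells), which was led by genes that include Enpp6, Gpr17 and Bmp4. Fabp5 ran the other way, at 271 CPM in cluster 12 and 813 CPM in cluster 14 (ratio 0.334, 0.274 to 0.404). Among mature cells, Fabp5 stood at 1269 CPM in cluster 18 (31 cells, a UMI in all 31) and 159 CPM in cluster 11 (132 cells), whose median depths were 13775 and 1894 UMIs. Without cluster 11, which was left out after seeing the data, the Fabp5 ratio of OPC-like to mature cells was 0.495.

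**Figure D5:**
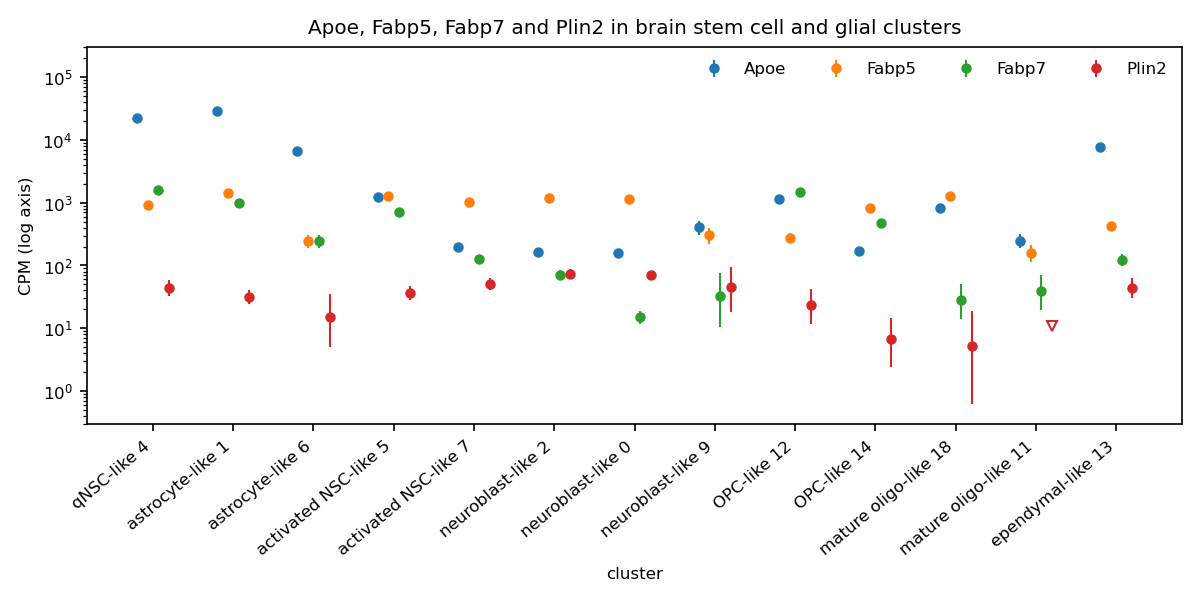
Level of Apoe, Fabp5, Fabp7 and Plin2 in brain stem cell, neuroblast, oligodendrocyte and ependymal clusters, in CPM on a log axis with exact Poisson 95% intervals. The open triangle marks 0 UMIs, drawn at the level of 3 UMIs. Apoe is highest in the astroglia-like clusters, while Fabp5 lies between 926 and 1406 CPM in clusters 0, 1, 2, 4, 5 and 7 and is lower in clusters 6 and 9, whose median depths are 1623 and 953 UMIs.

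Against brain endothelium, astroglia-like cells were higher in Apoe (24440 against 869 CPM, ratio 28.1, 26.5 to 29.9), Fabp7 (1113 against 16.7 CPM, ratio 66.8, 43.7 to 108), Fabp5 (1124 against 61.1 CPM, ratio 18.4, 14.7 to 23.4) and Lpl (12.9 against 0.793 CPM, ratio 16.3, 2.77 to 660). For Lpl 1 cell held 23 of the 42 astroglial UMIs, and with cells gated one by one it was at least 1.37-fold higher, on 11 against 0 UMIs. Plin2 was lower (34.2 against 81.7 CPM, ratio 0.419, 0.317 to 0.553), and with ratios scaled to their median over genes it came within 2-fold. In all, 4 of 5 members were higher and 1 lower, beside 26.1% and 19.8% of 11688 genes. Of 85 other lipid genes, 35 were higher in astroglia and 24 lower. In fatty acid and sterol synthesis, 12 of 15 genes were higher and 2 lower, with a median log2 ratio of 2.81 beside 0.00 for all genes. This was the list with the largest median of 7. The counts higher and lower were 1 and 2 of 15 genes in fatty acid oxidation, 7 and 7 of 16 in lipoprotein particles and receptors, 5 and 5 of 15 in triglyceride storage and lipolysis, 5 and 5 of 13 among lipid-sensing regulators, 4 and 3 of 9 in fatty acid uptake and activation and 1 and 0 of 2 in fatty acid binding. Acsbg1 and Acsl6, which activate fatty acids, were at 398 and 446 CPM in astroglia against 3.17 and 3.96 CPM, and Pltp, a phospholipid transfer protein, at 2.77 against 144 CPM.

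Smaller classes held some of the highest values. Fabp7 reached its top level in lung Schwann-like cells (32 cells), with 291 UMIs in 27 cells (1695 CPM, 1506 to 1901), and Apoe there was 5183 CPM, although 1 cell held 372 of the 890 UMIs. Fabp7 was also found in the unnamed lung cluster 8 (202 cells, led by Parm1, Fmod and Rgs7bp), at 473 CPM in 112 cells. In lung epithelial-like cells (49 cells), Fabp5 was at 975 CPM with 132 of 384 UMIs in 1 cell, and 157 of the 160 Fabp4 UMIs came from 1 cell. Brain ependymal-like cells (118 cells) had 7791 CPM of Apoe in 94.1% of cells and 20 Cd36 UMIs in 8 cells, the largest Cd36 count of any named brain class. Brain microglia-like cells (34 cells) had 10205 CPM of Apoe, with UMIs in 16 cells and 532 of the 1695 UMIs in 1 cell.

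The lung T cell-like class (122 cells) had the highest Plin2 (262 CPM) and Pparg (29.4 CPM) and the second highest Lpl (365 CPM), and it also held all 10 genes of the macrophage list at 4021 CPM. Only 15 of its cells had UMIs of at least 2 macrophage markers. These 15 held 148 of the 149 Lpl UMIs, 96 of 107 Plin2 UMIs, 54 of 55 Cd36 UMIs, 511 of 518 Apoe UMIs, 18 of 20 Fabp4 UMIs and all 12 Pparg UMIs. In the other 107 cells Lpl was at 3.28 CPM (0.0830 to 18.3) and Pparg had no UMI. Fabp5 was the exception, with 38 of 89 UMIs in those 107 cells (125 CPM). The split of these cells was made after their values were seen.

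The genes whose level was most like that of each member were found over the 16 named classes of at least 50 cells, by Pearson r of log2(CPM + 10), among 5738 genes that reached 100 CPM in a class. The r values describe 16 points that share 2 libraries, and each point is a sum over a class that can hold unlike cells. Gpihbp1 was most like Myzap (r = 0.98), Aqp1 (0.98) and Slco2a1 (0.97), and Fabp4 like Myzap (0.94), Aqp1 (0.93) and Gpihbp1 (0.91), the one case among these in which a member was among the 3 closest to another. Myzap was a leading gene of lung endothelial-like cluster 11, where Fabp4 stood at 14.8 CPM, while 97.8% of the Fabp4 UMIs of the class lay in cluster 17. Cd36 was closest to Hpgd (0.90), Gata3 (0.89) and Myzap (0.88). Fabp7 was closest to Fut9 (0.92), Isca2 (0.91) and Adcyap1r1 (0.90), and Fabp5 to Rtn3 (0.92), Ctnna2 (0.91) and Igsf11 (0.90). Apoe had Pdpn (0.88), Acot13 (0.82) and Aifm3 (0.80), and Lpl had Cxcl16 (0.89), Ifi27l2a (0.87) and Serp1 (0.85). For Plin2 these were Bcl2l11 (0.88), Znrf2 (0.88) and Ccdc59 (0.87), and for Pparg Alox5ap (0.95), Ms4a6b (0.95) and Sept1 (0.94). Gata3, Cxcl16, Ifi27l2a, Bcl2l11, Znrf2 and the 3 genes named for Pparg had their highest level in the lung T cell-like class, where the 15 cells with macrophage markers held nearly all Cd36, Lpl and Pparg UMIs. Fabp3, low as it was, had Hspb7, Actc1 and Clca2 (0.95, 0.95 and 0.94).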

How the data were processed

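Per the labels and methods, the authors captured the sorted cells on a droplet system with a 3′ kit, processed the reads with UMI-tools 1.0.0, aligned them to mm10 with STAR 2.7.1a and assigned them with featureCounts 1.6.4 (versions from the submitters' processing notes). The deposited values are raw counts of UMIs per gene and barcode. The annotation version and the strand setting were not given in the sources used here. Fabp3 overlaps Gm10570 and Zcchc17 on the opposite strand and Pparg overlaps Gm44079, so their reads could not be told apart if strand was not used. Pseudogenes Fabp3-ps1 and Fabp5l2 had at most 25 UMIs in a library.

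Barcodes with over 200 and under 4000 genes and under 40% mitochondrial counts passed the filter, the limits being those of the published methods, which left the depths given in the report (26221173 brain and 36816962 lung UMIs before the filter). Doublets were kept; Scrublet in scanpy 1.11.5 called 44 brain (1.06%) and 74 lung cells (1.32%), and their removal was an alternative. Each library was clustered with Seurat 5.3.0 at resolution 0.8. A cluster was named where the mean log2(CPM + 10) of a class's markers, less its mean over clusters, reached 1, exceeded that of the next class by 0.5 and rested on 3 markers found in 20% of cells. A cluster with a median depth under 1/3 of its library's and none of the class's markers among its 10 leading genes was not named, which applied to lung clusters 7, 9 and 10. The naming thresholds were set after seeing the data. The members and gene lists were chosen with earlier results of these data known. From the other lipid genes, at most 3 per direction with the largest ratios were eligible to be named for each comparison; those given for single clusters, and the pairs of clusters compared, were chosen after their values were seen. A level of 0 UMIs was set to a floor of 3 counts over the class, and a class at 0 could only be called lower. Intervals and floors cover counting error only. The calls and intervals were tested on simulated counts. Alternatives were other clustering resolutions, filters, doublet removal, cells gated one by one, equal weight per cell, another scaling, no count minimum and leaving out single clusters.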

Additional observations from a re-analysis of the deposited data

Results flagged for a closer look

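Fabp5 stood in opposite order between endothelium and vessel wall in the 2 tissues. In brain, the ratio of endothelial-like to mural-like cells was 0.314 (95% interval 0.228 to 0.430), on 77 and 91 UMIs. These lay in 25 of 329 endothelial-like and 41 of 169 mural-like cells, with up to 10 UMIs in 1 cell of each class. The interval does not cover this unevenness, and the part of free RNA from other brain cells was not tested. The level in brain endothelium relative to lung also changed with doublet removal and with cells gated one by one. In lung, the ratio of endothelial-like to pericyte-like cells was 4.54 (3.88 to 5.33), on 404 and 262 UMIs, and it was 2.03 without cluster 17 and 23.5 without cluster 13. No test of this difference was possible with 1 library per tissue, and it was not tested. Cluster 17 held 60.4% of the lung endothelial Fabp5 UMIs, and cluster 13 held 81.7% of those of the pericyte-like class.

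The members also had counts in the barcodes that the filter removed. The main comparisons did not use them, while the alternative with no upper limit on genes took in part of them (4569 brain and 5915 lung barcodes in all, against 4151 and 5608). Summed over the 10 genes, the 489 removed brain barcodes had 2206 CPM (2170 to 2242), against 6403 CPM in the kept cells. The 373 removed lung barcodes had 1560 CPM (1526 to 1595), against 1327 CPM in the kept cells.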

How the results depend on the processing

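No paired analysis was possible because each group held 1 library. Over all alternatives, 98 of 108 counts of differing members stayed within 1.5 times their main value and 10 did not. With no count minimum the counts were 3 for OPC against mature oligodendrocytes (main 1) and 2 for quiescent NSC against astrocytes (main 1). With cells gated one by one they were 1 for astroglia against activated NSC (main 2) and 3 for OPC against mature oligodendrocytes, and quiescent NSC against astrocytes was not run. The aerocyte comparison (main 2) gave 1 with the gate on Ednrb or Apln and 1 without cluster 17. Without brain cluster 11, OPC against mature oligodendrocytes gave 2. Quiescent NSC against astrocytes gave 2 with no upper limit on genes, 2 at resolution 0.4 and 3 with every cell weighted the same.

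Of 651 ratios of single members, 41 crossed 2-fold and 44 changed side of 1, most of them ratios within 2-fold of 1 in the main analysis. Among those past 2-fold there, 7 reversed. The reversed ones were, with cells gated one by one, Lpl in lung endothelium over pericytes (0.595) and Apoe in lung pericytes over brain mural cells (1.81), and without cluster 17, Fabp4 (0.929) and Pparg (0.554) in lung endothelium over pericytes and Fabp4 (at most 0.189) and Fabp5 (0.506) in the aerocyte gate. With no upper limit on genes, Fabp4 in lung matrix over brain fibroblasts was 0.646. Of the others, Apoe in lung endothelium over pericytes was 0.185 with cells gated one by one and 0.915 without cluster 17, Fabp5 in lung over brain endothelium 0.857 without cluster 17, and Lpl in astroglia over activated NSC 0.459 with cells gated one by one. The cause was not tested. Removing clusters 11, 13, 17 or 21 was chosen after seeing the data. Over genes with at least 20 UMIs in each class, the log2 of the median ratio lay between −0.31 and 0.24 by comparison; scaling to it changed no count of members by over 1.5 times. Levels below about 10 UMIs per class were limited by depth.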
